A study of Mus musculus with 4 samples.

Results

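The genes described here encode the sodium, calcium and potassium channels that are named for voltage gating, together with their auxiliary subunits and the related potassium channel families. They were taken from poly(A) RNA-seq of mouse brain at embryonic day 13. A gene was included when both deposited tables listed it as protein coding, when its name began with Scn, Cacna, Cacnb, Cacng, Cacna2d or Kcn followed by a number in the pattern of these families, and when its counts summed to at least 20 over the 4 libraries. The rule gave 105 genes of the 19500 listed in both tables. It used the summed counts, so a level above the minimum is a condition of choice and not a finding. The last genes inside the count minimum were Kcnj15 with 21 counts and Kcnq1 with 28, and the nearest genes outside were Kcns1 and Kcnn4 with 18 each. A further 4 genes of the pattern were listed in 1 table and were not analysed, and 11 listed in both tables stayed under 20 counts.

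The study asked how the transcription factor gene Wt1 acts on neural progenitors. Wt1_CKO brains were labelled as a conditional knockout of Wt1, and Wt1_flfl brains, labelled as wild type, carried the floxed Wt1 alleles. Both groups were on a C57BL/6 background, with 2 samples each, numbered 1 and 2. Neither the Cre line nor the part of the brain is named in the labels, nor whether a sample was 1 animal or a pool. The p-values therefore measure the spread between these samples, which may be technical. The Wt1 transcript is not reported here, so the genotype was not checked against the targeted gene.

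Voltage-gated sodium channels carry the rising phase of the action potential, calcium channels turn depolarisation into calcium entry and transmitter release, and potassium channels end the spike and set the resting potential. Most of these channels have 1 pore-forming protein or a tetramer of such proteins, joined by auxiliary subunits that set trafficking and gating. In the embryonic brain many of them appear in young neurons, and Scn3a is known for high levels before birth. The name pattern is wider than voltage gating. Of the 105 genes, 12 encode inward rectifiers (Kcnj), 7 encode tandem-pore leak channels (Kcnk) and 7 encode channels of the families opened by calcium or sodium (Kcnma, Kcnn, Kcnt) with their pH-gated relative Kcnu1. Auxiliary subunits and partner proteins of potassium channels account for 13 genes (Kcnab, Kcne, Kcnip, Kcnmb). The remainder are 11 sodium channel genes, 22 genes named for calcium channels and 33 pore-forming genes of the voltage-gated potassium families. The 22, called calcium channel genes here, include 7 gamma genes (Cacng), several of which act at AMPA-type glutamate receptors.

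The libraries held 16215074 to 17696279 counts in genes of both tables. Their markers were those of a neural tissue. All 15 markers of postmitotic neurons were listed and summed to between 7455 and 8469 CPM (counts scaled to a library of 1000000 after TMM adjustment), while the 5 listed of 7 skeletal muscle markers summed to between 3.88 and 7.22 CPM, with a 0 in some library for 2 of them. The 5 listed of 7 sensory ganglion markers summed to between 3.72 and 4.79 CPM. Rows annotated as ribosomal RNA stood apart in 1 library, with 449 and 266 CPM in Wt1_CKO replicates 1 and 2, against 4628 and 184 CPM in Wt1_flfl replicates 1 and 2. Globin and other red cell genes summed to 1402 and 1529 CPM in the libraries numbered 2 (Wt1_CKO, then Wt1_flfl), against 864 and 885 CPM in those numbered 1. In bulk tissue, fewer cells of a type and less RNA per cell cannot be told apart.

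Levels between genes are compared per length, as CPM per kilobase (kb) of annotated exon. The length merges the exons of all annotated transcripts of a gene and can exceed that of the transcripts present. The order of genes depends on it. On this scale genes named as gamma and beta subunits of calcium channels held the top of the order. The highest 3 genes were Cacng7, Cacnb3 and Cacng4, and the 10 highest genes together made 62.9% of the summed level per kb of all 105. Cacng7 averaged 92.3 ± 8.81 CPM per kb (SD over the 4 libraries), Cacnb3 63.3 ± 7.16 and Cacng4 60.6 ± 5.69 CPM per kb. The level of Cacng7 stood above those of the other two beyond their spread, and Cacnb3 and Cacng4 did not differ beyond theirs. Cacng4, Cacng7 and Cacng8 belong to the gamma family, several of whose members act as auxiliary proteins of AMPA-type glutamate receptors, and Cacnb3 is a cytosolic beta subunit. Other high genes were Cacnb1 with 21.5 ± 2.52, Cacna1h with 17.9 ± 0.813, Scn3b with 15.4 ± 1.21, Cacna2d2 with 11.5 ± 1.48, Kcnh4 with 9.49 ± 3.04 and Cacng8 with 8.96 ± 0.828 CPM per kb. Cacna2d2 and Kcnh4 differed by less than the sum of their SDs, as did Kcnh4 and Cacng8. The median gene of the 105 had 1.53 CPM per kb.

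**Figure D1:**
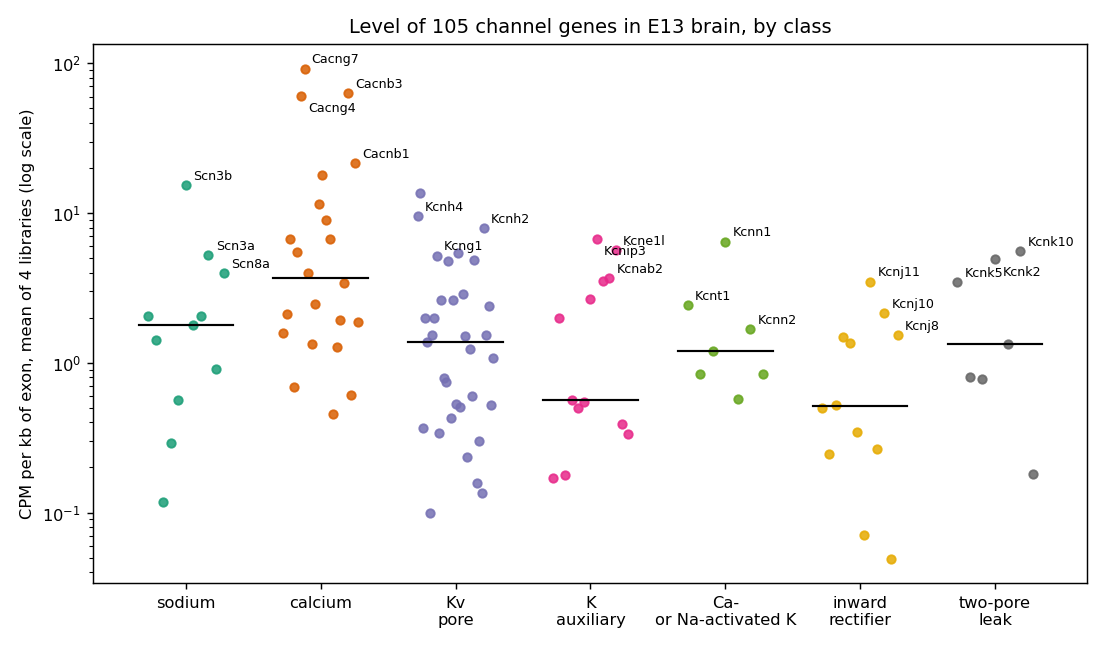
Level of each of the 105 channel genes as CPM per kb of exon (mean of the 4 libraries, log scale), grouped by class; a line marks the median of each class and the highest genes are named. Genes named for calcium channels hold the top of the scale, led by the gamma gene Cacng7 at 92.3 CPM per kb, while the sodium channel genes are led by the beta subunit gene Scn3b at 15.4.

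**Figure D2:**
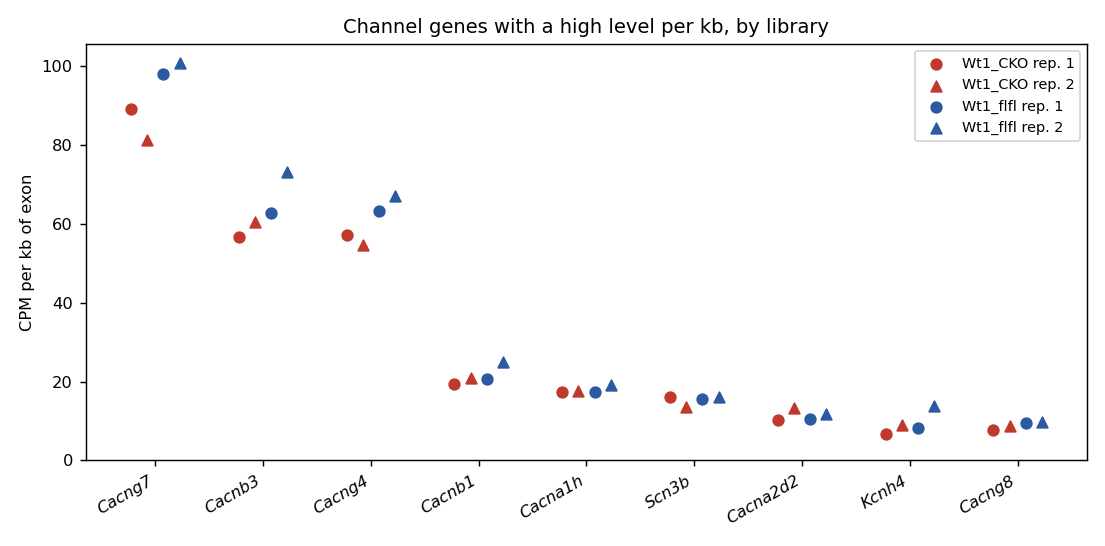
CPM per kb of exon in each library for the high channel genes named above, with Wt1_CKO in red and Wt1_flfl in blue, circles for replicate 1 and triangles for replicate 2. Both Wt1_CKO libraries lie under both Wt1_flfl libraries for Cacng7, Cacnb3, Cacng4 and Cacng8.

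Among the pore-forming sodium channel genes, Scn3a led with 5.21 ± 0.549 CPM per kb (SD over the 4 libraries). Other values were Scn8a with 3.97 ± 0.311 and Scn2a with 1.78 ± 0.155. In CPM, without the length, Scn3a averaged 64.9 and Scn8a 62.6. Scn1a, the sodium channel of fast-spiking interneurons and the gene of Dravet syndrome, had 0.913 ± 0.263 CPM per kb. Scn10a and Scn11a, channels of peripheral sensory neurons, were near the lower end with 0.117 and 0.293 CPM per kb. Scn3b, a beta subunit, stood above every sodium channel pore gene. Scn3a and Scn2a lie in one stretch of chromosome 2 (positions 65457118 to 65767447, GRCm38), with Scn1a and Scn9a in a stretch further along (66270778 to 66634962). The CPM of Scn3a was 70.7 and 55.9 in Wt1_CKO replicates 1 and 2, against 69.8 and 63.4 in Wt1_flfl replicates 1 and 2, and the genotypes overlapped.

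The pore-forming calcium channel genes were led by Cacna1h, a low-voltage-activated T-type channel, and Cacna1g, of the same type, which had 6.67 ± 1.01 CPM per kb. Cacna1b, the N-type channel of presynaptic release, had 5.53 ± 0.127 CPM per kb and the smallest relative spread of these 3. Cacna1a, the P/Q-type channel, had 3.41 ± 0.458, Cacna1e 2.47 ± 0.437 and Cacna1c, the main L-type channel of brain, 2.13 ± 0.131 CPM per kb. Without the length the order differed, with mean CPM of 38.9 for Cacna1a, 62.4 for Cacna1e and 45.1 for Cacna1c. In CPM, Cacna1h had 171 and 172 in Wt1_CKO, against 170.4 and 187 in Wt1_flfl, and the groups overlapped. Of the α2δ subunit genes, Cacna2d2 had 11.5 and Cacna2d1 6.75 ± 1.03 CPM per kb, while Cacna2d3 had 1.86 ± 0.27.

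Among potassium channel genes Kcnq3, a subunit of the M-current that limits repetitive firing, had 2.63 ± 0.713 CPM per kb. Kcnh4 and Kcnh2, of the ether-à-go-go families, had 9.49 and 7.9 ± 1.66 CPM per kb. Of the other pore-family genes, Kcng1 had 5.19 ± 1.4, Kcnc1 4.87 ± 0.427, Kcnd3 4.81 ± 0.347, and Kcnd2, an A-type channel, 2.86 ± 0.323 CPM per kb. Kcna6 was the highest of the Kcna genes, which encode the axonal potassium channels of the Shaker family, with 1.99 ± 0.374, while Kcna1 had 0.299 ± 0.0884 CPM per kb.

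Outside the voltage-gated pores, the tandem-pore leak gene Kcnk10 had 5.55 ± 0.244 CPM per kb and Kcnk2, also a leak channel that responds to stretch, 4.9 ± 0.467. Kcnn1, a small-conductance channel opened by calcium, had 6.45 ± 0.957, and Kcnma1, the large-conductance channel, 0.841 ± 0.118 CPM per kb. Kcnj11, the pore of the ATP-sensitive channel, was the highest inward rectifier with 3.48 ± 1.31, and the glial gene Kcnj10 had 2.15 ± 0.522 CPM per kb. Of the partners, Kcnip3, a calcium-binding protein of the Kcnd channels, had 6.73 ± 1.46, Kcne1l 5.63 ± 0.879 and Kcnab2, a cytosolic beta subunit, 3.66 ± 0.596 CPM per kb. Kcnf1, Kcnv1 and Kcns2, counted above with the voltage-gated potassium families, encode electrically silent subunits that alter other channels. Kcnf1 had 2 ± 0.4, Kcnv1 1.08 ± 0.583 and Kcns2 0.134 ± 0.0902 CPM per kb. Kcnu1 had 0.845 ± 0.234 and Kcnmb2 0.545 ± 0.269 CPM per kb. Kcnj8, a channel known from pericytes and smooth muscle, had 45 and 71 counts in Wt1_CKO, against 84 and 63 counts in Wt1_flfl.

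By CPM, 5 of the 105 genes averaged at least 100, 45 lay between 10 and 100, 41 between 1 and 10 and 14 under 1. Some exons overlap genes on the other strand. Whether the counting used strand is not given in the sources used here, so such counts may include reads of the partner. This concerns Kcnq1, with 28 counts beside 1334 for Kcnq1ot1, Kcnip4, with 138 beside 947 for 5730480H06Rik, and Kcnmb4, with 113 beside 210 for Kcnmb4os2. Kcnk3, with 210 beside 140 for Gm9899, and Kcnh7, with 1279 beside 762 for Gca, are further cases.

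The comparison of Wt1_CKO with Wt1_flfl brain asked whether the channel genes differed by genotype. No channel gene passed the test. The 105 genes summed to 2781 and 2676 CPM in Wt1_CKO replicates 1 and 2, against 2793 and 2956 CPM in Wt1_flfl replicates 1 and 2. Of the 105 genes, 101 passed the filter on low counts (Kcne2, Kcne4, Kcnj15 and Kcnq1 did not), and 0 of 101 had an adjusted p under 0.05 in edgeR's quasi-likelihood test, with 0.00628% of all 15933 genes called. At an unadjusted p under 0.05 the number was 0 of 101 with edgeR, 0 with DESeq2 and 0 with limma-voom, where edgeR gave 1.56% of all genes. With replicate number as a second term, edgeR gave 11 of 101 at that unadjusted threshold and called 0. That fit called 42 of all 15933 genes, and its share of all genes at the unadjusted threshold is not given here. The median log2 fold change of the channel genes was -0.05, beside 0.01 over all genes tested. The fold change was above 0 for 42 channel genes (41.6%, beside 51.8% of all genes) and below 0 for 59. With 1 library left out, the channel median was -0.03 without Wt1_flfl replicate 1 and -0.06 without Wt1_flfl replicate 2. It was -0.16 without Wt1_CKO replicate 1 and 0 without Wt1_CKO replicate 2. In the pairs of same-numbered libraries the median was -0.03 in pair 1 and -0.13 in pair 2. A miss of the threshold does not show equal levels. The 95% interval of the fold change had a median reach of 0.68 log2 units to each side, and for 67 of the 101 genes it lay within 1 log2 unit of no change.

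Both Wt1_CKO libraries lay below both Wt1_flfl libraries for 18 of the 101 genes (17.8%), where 13.5% of all genes did so. Both lay above for 2 genes (1.98%), Kcnj10 and Kcnt1, where 13.4% of all genes did so. Calcium channel genes made 7 of the 18, and 4 of these were gamma genes. The 22 calcium channel genes summed to 1489 and 1442 CPM in Wt1_CKO, against 1545 and 1657 CPM in Wt1_flfl, and 15 of them had a fold change below 0, with a median of -0.11. The 7 gamma genes summed to 469.7 and 440.2 CPM in Wt1_CKO, against 519 and 541 CPM in Wt1_flfl, without overlap. Of these 7 genes, 4 had groups that did not overlap, all lower in Wt1_CKO, namely Cacng2, Cacng4, Cacng7 and Cacng8. The 8 Kcnh genes summed to 109 and 115 CPM in Wt1_CKO, against 129.8 and 148 CPM in Wt1_flfl. All 8 had a fold change below 0, and 2 of them, Kcnh6 and Kcnh8, had groups that did not overlap. Of the 11 sodium channel genes 10 had a fold change below 0, with a median of -0.1 and with Scn9a alone not overlapping. The neuron markers summed to 8068 and 7455 CPM in Wt1_CKO, against 8469 and 8359 CPM in Wt1_flfl, and the 15 had a median log2 fold change of -0.1 and none called. The 6 thalamus markers, all listed, summed to 75.7 and 84 CPM in Wt1_CKO, against 161 and 117 CPM in Wt1_flfl. The part of these cells in the channel gene values was not tested.

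The 5 genes lower in Wt1_CKO with the smallest unadjusted p were gamma subunits or genes with few counts. Cacng4 had 205 and 195 CPM in Wt1_CKO, against 226 and 240.3 CPM in Wt1_flfl. The groups did not overlap, and the log2 fold change was -0.22 with an interval from -0.48 to 0.03. Cacng7 had 218 and 198 CPM in Wt1_CKO, against 239 and 246 CPM in Wt1_flfl, and its log2 fold change of -0.22 had an interval from -0.48 to 0.04. For both, edgeR's adjusted p was 1.

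Of the potassium channel genes, Kcng2, a silent subunit, had 6 and 3 counts in Wt1_CKO, against 10 and 13 counts in Wt1_flfl. Its log2 fold change of -1.41 had an interval from -2.94 to 0.13, with an unadjusted edgeR p of 0.0663, the smallest among the channel genes. Kcna5, a Shaker-family channel, had 13 and 20 counts in Wt1_CKO, against 21 and 47 counts in Wt1_flfl. Kcna4, of the same family and an A-type channel, had 16 and 12 counts in Wt1_CKO, against 21 and 28 counts in Wt1_flfl. The libraries of each of these 3 genes did not overlap, at counts where counting error is large.

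On the other side, Kcnj10 had 15.8 and 10.9 CPM in Wt1_CKO, against 10 and 9.76 CPM in Wt1_flfl. Its log2 fold change was 0.43, with an interval from -0.13 to 1.0, and 1 Wt1_CKO library stood apart from the other 3. Kcnip3 had 30.5 and 23 CPM in Wt1_CKO, against 24.1 and 17.9 CPM in Wt1_flfl, with an overlap of the groups. Kcnt1, a sodium-activated channel, had 24.3 CPM in both Wt1_CKO libraries, against 22 and 21.1 CPM in Wt1_flfl, a log2 fold change of 0.17 with an interval from -0.17 to 0.52. Kcnab2 had 24.9 and 19.2 CPM in Wt1_CKO, against 20.5 and 17 CPM in Wt1_flfl. Kcnt2, a relative of Kcnt1, had a log2 fold change of 0.74 with an interval from -0.84 to 2.33, and it turned to -0.39 without Wt1_CKO replicate 1.

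**Figure D3:**
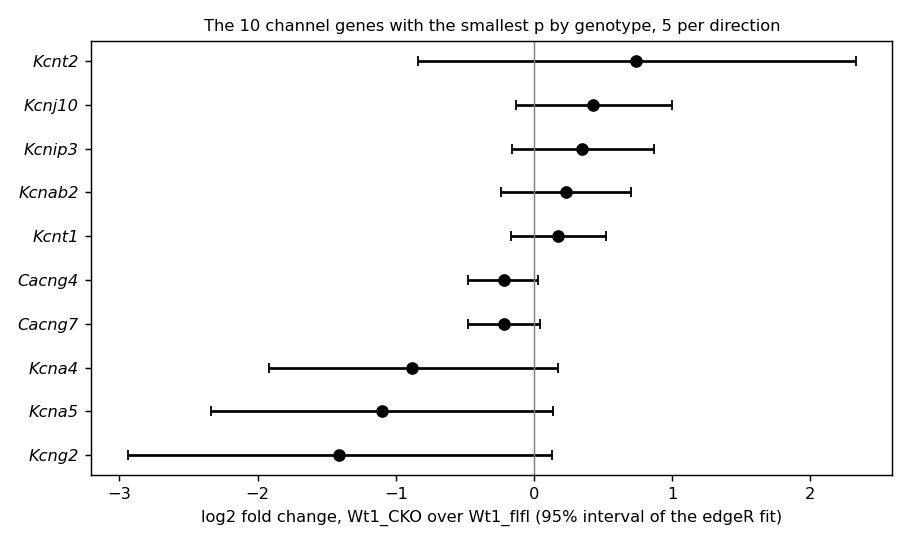
log2 fold change of Wt1_CKO over Wt1_flfl with the 95% interval of the edgeR fit, for the 5 channel genes per direction with the smallest unadjusted p. Every interval crosses 0. Those of Cacng4 and Cacng7 are the narrowest, and those of the low genes Kcng2 and Kcna5 are wide.

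The authors' deposited tables, which compare 1 library with 1 library, mark 3 of the 105 channel genes in pair 1 and 5 in pair 2, none of them in both. They mark 3.09% in pair 1 and 3.02% in pair 2 of the 17401 genes listed in both tables with at least 20 counts. In the authors' deposited table for pair 1, Kcne2, a partner subunit abundant in choroid plexus, is marked higher in Wt1_CKO with a log2 fold change of 2.27. It had 21 counts in Wt1_CKO and 4 in Wt1_flfl in that pair, and 8 counts in each library of pair 2. Choroid plexus markers, 7 of 7 listed and 4 past the filter, summed to 61 CPM in Wt1_CKO replicate 1 and 23.9 CPM in Wt1_flfl replicate 1. In pair 2 they summed to 27.4 and 49.7 CPM in the same order. Most of these sums came from Ttr and Otx2. In pair 1 Ttr had 40.3 and 0.249 CPM, and Otx2, going the other way, 15.8 and 22.4 CPM. In pair 2 Ttr had 0.987 and 12.4 CPM, and Otx2 24 and 31.4 CPM. The part of choroid plexus in the Kcne2 counts was not tested. The same table marks Kcnh6 and Kcnj8 as lower, and the authors' deposited table for pair 2 marks Kcna4, Kcna5, Kcng2, Kcnk12 and Kcnmb2 as lower.

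Genes of the same machinery outside the name pattern were read in the same fit. The list, made up with earlier results of these data known, held pacemaker channels, the sodium leak channel and its partners, ankyrins, FGF homologous factors and release proteins. Of its 40 genes 39 were tested, and edgeR called 0 by genotype, beside 0.00628% of all genes. At an unadjusted edgeR p under 0.05 there were 0, beside 1.56% of all genes. The median log2 fold change of the 39 was -0.05, with 14 above 0 and 25 below. 

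The libraries also differed by replicate number, and the channel genes took part in that difference. The numbers come from the sample titles, and each deposited table holds the 2 samples of 1 number. No label says that a number marks a litter, a day or a batch. Between number 2 and number 1, edgeR called 4 of 101 channel genes (3.96%), all lower in the libraries numbered 2, where 1.96% of all 15933 genes were called, 0.885% were called higher and 1.08% were called lower. The 4 were Kcnq3, Kcnj11, Kcnv1 and Kcnt2. They were not called when Wt1_flfl replicate 1 or Wt1_CKO replicate 1 was left out, in fits that leave 1 library numbered 1. Without Wt1_flfl replicate 1 their log2 fold changes, in the order named, were -0.75, -1.06, -1.57 and -1.99. They were -0.58, -0.84, -1.02 and -1.18 without Wt1_CKO replicate 1. Without Wt1_CKO replicate 2 the log2 fold changes of these 4 were -0.6, -0.9, -1.43 and -1.93, in the same order. At an unadjusted p under 0.05 there were 33 of 101 channel genes (32.7%), beside 17.9% of all genes, 12 of them higher (beside 9.16% of all genes) and 21 lower (beside 8.75%). The libraries numbered 2 both lay below those numbered 1 for 39 channel genes (38.6%, beside 25% of all genes) and above for 23 (22.8%, beside 24.7%). The median absolute log2 fold change was 0.32 in channel genes and 0.18 over all genes.

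Kcnq3 (chromosome 15, 65986387 to 66286224, GRCm38 as the tables give it) had 28.3 CPM in Wt1_CKO and 31.4 CPM in Wt1_flfl in the libraries numbered 2, against 50.3 and 44.7 CPM in those numbered 1. Both libraries numbered 2 were lower than both numbered 1. edgeR gave a log2 fold change of -0.67 ± 0.116 (SE) and an adjusted p of 0.0264.

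Kcnj11 (chromosome 7, 46093953 to 46100764) had 8.36 and 9.06 CPM in the libraries numbered 2 (Wt1_CKO, then Wt1_flfl), against 18.1 and 15.6 CPM in those numbered 1. This was a log2 fold change of -0.95 ± 0.166 (SE), edgeR adjusted p 0.0264. Kcnv1 (chromosome 15, 45106284 to 45114934), a silent subunit that joins other potassium channels, had 3.02 and 2.63 CPM in the libraries numbered 2, against 8.38 and 5.73 CPM in those numbered 1. This was a log2 fold change of -1.32 ± 0.262 (SE), edgeR adjusted p 0.042. Kcnt2 (chromosome 1, 140246158 to 140612067), a sodium-activated channel, had 2.26 and 1.58 CPM in the libraries numbered 2, against 7.64 and 4.36 CPM in those numbered 1, a log2 fold change of -1.64 ± 0.338 (SE), edgeR adjusted p 0.0467. In each of the 3 genes the numbers did not overlap, and Wt1_CKO replicate 1 was the highest library.

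**Figure D4:**
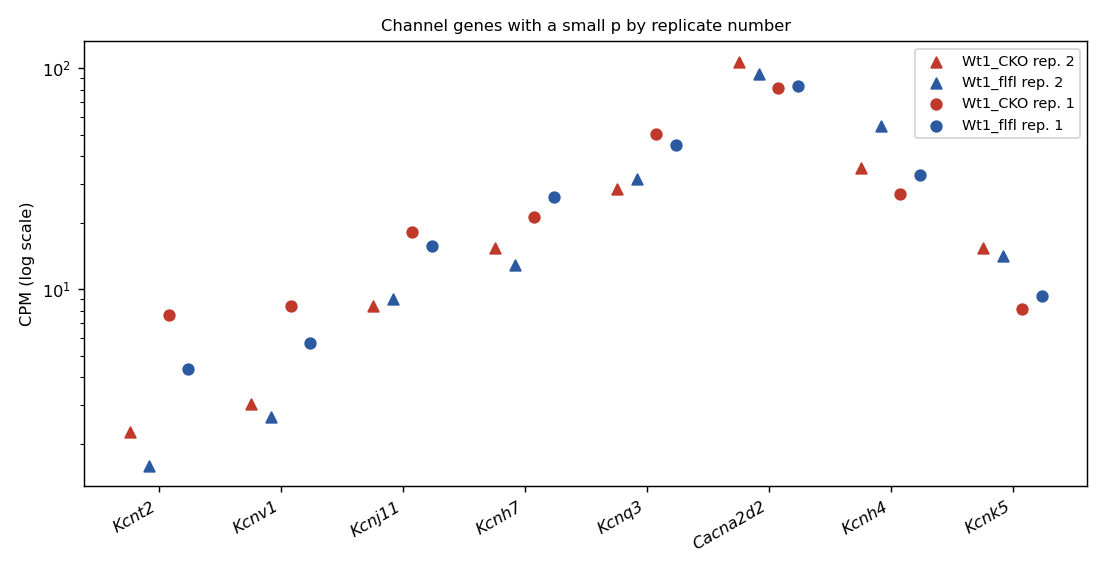
CPM in each library (log scale) of channel genes ranked high by p in the comparison of replicate numbers, with the libraries numbered 2 (triangles) to the left of those numbered 1 (circles) and Wt1_CKO in red beside Wt1_flfl in blue. For all genes drawn the triangles do not overlap the circles, and Kcnt2, Kcnv1, Kcnj11, Kcnh7 and Kcnq3 are lower in the libraries numbered 2.

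Other genes missed the threshold in edgeR by little. Kcnh7, an ERG-type channel, had 15.4 and 12.9 CPM in the libraries numbered 2 (Wt1_CKO, then Wt1_flfl), against 21.2 and 26 CPM in those numbered 1, with an edgeR adjusted p of 0.0558. Kcnk5, an acid-sensitive leak channel, had 15.4 and 14.1 CPM in the libraries numbered 2, against 8.15 and 9.34 CPM in those numbered 1, with an edgeR adjusted p of 0.0579. Scn1a had 7.9 and 7.42 CPM in the libraries numbered 2, against 12.3 and 13.1 CPM in those numbered 1, with an edgeR adjusted p of 0.0654. Cacna1e, an R-type calcium channel, and Kcnj3, a G-protein-gated inward rectifier, were also lower in both libraries numbered 2, with edgeR adjusted p of 0.0644 and 0.0649.

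Kcnh4 had 35.4 and 54.7 CPM in the libraries numbered 2, against 26.9 and 33 CPM in those numbered 1, and Wt1_flfl replicate 2 was the highest library. Cacna2d2 had 107 and 93.7 CPM in the libraries numbered 2, against 81.1 and 83.1 CPM in those numbered 1. The 4 Kcnip genes all had a fold change below 0 (median -0.53). Of these 4, 3 had an unadjusted edgeR p under 0.05, with none called, where 8.75% of all genes were lower at that threshold. Kcnip4, whose exons overlap a gene with more counts on the other strand, is 1 of these 3.

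Kcnt2 and Kcnh7, lower in the libraries numbered 2, and Kcnk5, higher there, are the members of these ranked genes whose upstream sequences are shown, as RefSeq gives them on GRCm38.p6. Each line is the 250 bases before the RefSeq start, 5′ to 3′ on the gene's strand. Capitals mark matches to the GC box GGGCGG on either strand.
Kcnt2 (chr1:140245468-140245717, plus strand): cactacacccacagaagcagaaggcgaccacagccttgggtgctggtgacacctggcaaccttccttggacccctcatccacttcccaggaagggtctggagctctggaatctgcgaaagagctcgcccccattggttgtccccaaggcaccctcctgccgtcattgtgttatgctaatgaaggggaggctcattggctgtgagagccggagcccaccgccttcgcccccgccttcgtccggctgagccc
Kcnh7 (chr2:63184288-63184537, minus strand): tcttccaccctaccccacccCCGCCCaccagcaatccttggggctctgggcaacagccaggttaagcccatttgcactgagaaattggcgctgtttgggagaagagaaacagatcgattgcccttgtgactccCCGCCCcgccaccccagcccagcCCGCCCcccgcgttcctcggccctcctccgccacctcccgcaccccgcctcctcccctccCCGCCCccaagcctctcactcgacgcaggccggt
Kcnk5 (chr14:20181783-20182032, minus strand): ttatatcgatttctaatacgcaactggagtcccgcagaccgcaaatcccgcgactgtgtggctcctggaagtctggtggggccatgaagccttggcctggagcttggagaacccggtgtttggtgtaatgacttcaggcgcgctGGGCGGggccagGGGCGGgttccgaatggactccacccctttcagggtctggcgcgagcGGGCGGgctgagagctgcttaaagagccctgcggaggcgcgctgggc

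The window of Kcnt2 held 0 matches to the GC box, that of Kcnh7 4 and that of Kcnk5 3. RefSeq windows were found for 74 of the 105 genes, with 106 windows in all. The GC box was present in 42.5% of these windows, beside 32.7% of all 32851 windows, and the TATA box TATAAA, on either strand, in 2.83%, beside 12.4%. The windows of channel genes had a median GC share of 58.8%, beside 52.4% over all windows. The left part of the site of REST, a repressor known to silence neuronal channel genes outside neurons, was searched as TTCAGCACC on both strands. It was in 1 window, that of Kcnh6 (0.943%, beside 0.301% of all windows). These are matches of letters in a short window and say nothing of binding.

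The share of G and C in the transcript moved with both comparisons. By genotype the Spearman correlation of log2 fold change with GC share was -0.28 across all genes and -0.14 across the 101 channel genes. The median log2 fold change of Wt1_CKO over Wt1_flfl was 0.08 for genes with a GC share of 28.7% to 43.7% and -0.08 for those with 55.4% to 86.5%, the lowest and highest of 5 equal bins. With a correction for GC share, added after the data were seen, the genotype fold change of Cacng7 was -0.14, beside -0.22 without it, and that of Cacng4 was -0.18, beside -0.22. By replicate number, across 15911 genes with a transcript sequence the median log2 fold change of number 2 over number 1 was -0.14 in the lowest of these bins and 0.06 in the highest. Channel genes in the same bins had medians of -0.27 (14 genes) and 0.10 (33 genes). Across the 101 channel genes the Spearman correlation of fold change with GC share was 0.3, and it was 0.27 across all genes. These are descriptions over genes that share the same 4 libraries. Kcnt2 had a GC share of 36.6%, Kcnv1 41.0%, Kcnq3 44.4% and Kcnj11 57.1%. With the same correction edgeR called Kcnq3 and Kcnj11. The folds of the other two stayed of similar size, with Kcnt2 at -1.38 (edgeR adjusted p 0.0778) and Kcnv1 at -1.17 (edgeR adjusted p 0.063).

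**Figure D5:**
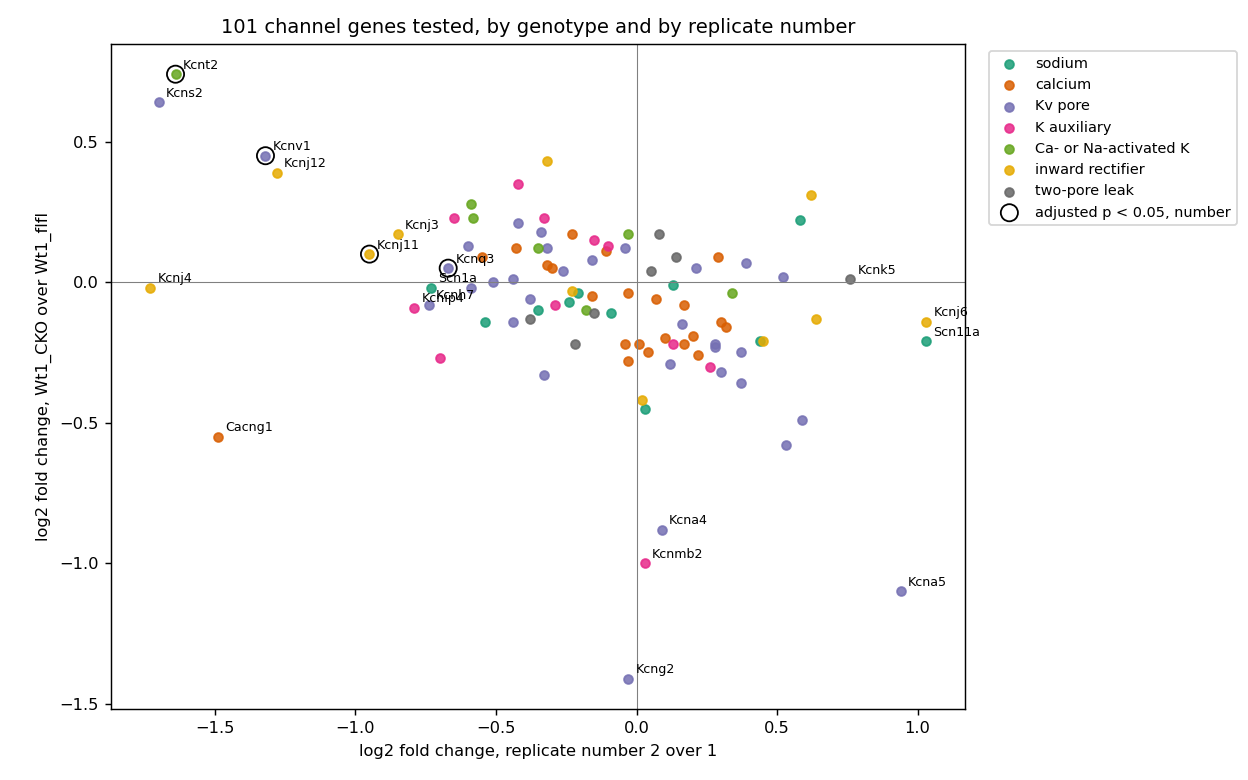
log2 fold change of Wt1_CKO over Wt1_flfl (vertical) against that of replicate number 2 over number 1 (horizontal) for the 101 channel genes tested, coloured by class, with rings around the 4 genes called by replicate number. Both axes use the same 4 libraries, so the points are not independent evidence. The spread along the horizontal axis is wider, with a median absolute value of 0.32 against 0.15 along the vertical axis.

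Progenitor and neuron markers were read beside this difference. The 10 progenitor markers summed to 3561 and 3379 CPM in the libraries numbered 2 (Wt1_CKO, then Wt1_flfl), against 3199 and 3101 CPM in those numbered 1, with Nes and Hes5 called higher. Fabp7, Slc1a3, Mki67 and Pax6, which are 4 of the 10, had fold changes below 0 (-0.27, -0.23, -0.17 and -0.07), with none called. The 15 neuron markers summed to 7455 and 8359 CPM in the libraries numbered 2, against 8068 and 8469 CPM in those numbered 1, with Nefm called higher. The median log2 fold change of the 15 was -0.04. Gap43, Elavl4, Snap25, Stmn2, Map2, Dcx, Nsg2, Tubb3 and Syt1 had fold changes below 0 (-0.39 to -0.04), with none called. The others were above 0. Of the red cell markers, Hbb-y and Alas2 were called higher. Their part in the channel gene values was not tested. Of the 39 tested genes of the wider excitability list, edgeR called 0 higher and 2 lower by replicate number, Dpp10 and Kctd12, with 8 at an unadjusted p under 0.05. Over all genes tested 1.96% were called and 17.9% had an unadjusted p under 0.05.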

How the data were processed

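Poly(A) RNA from 2 Wt1_CKO and 2 Wt1_flfl brains was sequenced. The submitters' processing notes name HTSeq 0.6.0, TopHat2 2.0.12, Bowtie2 2.2.3 and mm9, while 97 of the 105 genes had the position of GENCODE vM21 on GRCm38, so positions are given on GRCm38. Per the file headers, each deposited table holds counts per gene for the 2 samples of 1 number. The deposited CPM columns were made by the authors from those counts. The authors' log2 fold change and p-value columns set single libraries against each other, by a test whose name is not given in the sources used here.

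Counts of the genes common to both tables went into edgeR 4.0.16 under R 4.3.3 (filterByExpr with a minimum count of 10, TMM, quasi-likelihood F test, Benjamini-Hochberg adjustment over all 15933 genes, threshold 0.05), once by genotype and once by replicate number, each with no other term. CPM printed here is the count scaled to a TMM-adjusted library of 1000000. CPM per kb divides it by the merged length of the exons of all transcripts of the gene in vM21. The SE is the log2 fold change over the square root of F, and intervals are at 95%. Differences within a pair use log2 CPM with a prior count of 2. The common biological coefficient of variation was 17.1%. Alternatives were DESeq2 size factors, no filter or at least 10 counts in every library, DESeq2 1.42.0, limma-voom (limma 3.58.1), leaving out each library and both terms together. A correction for GC share, alone and with both terms, was added after the data were seen.

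Named genes were the 10 highest per kb, the 5 per direction with the smallest p in each comparison, every called gene, the highest of each family and a list of well-known channels. Any gene named beyond that rule was picked with its values known. The members and lists were chosen with earlier results of these data known. Counts carry no molecular identifiers, so reads may be copies of one molecule. Wt1 and some channel genes that the rule would name are not reported here.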

Additional observations from a re-analysis of the deposited data

Results flagged for a closer look

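For 4 of the 105 channel genes the pairs of same-numbered libraries moved in opposite directions, each past counting error by an exact binomial test of the counts at 0.05, unadjusted. These are 3.81% of the channel genes, beside 955 of 17401 genes with at least 20 counts (5.49%). The difference between the pairs was not tested, since each pair is 1 library against 1 library. Cacna1d, an L-type calcium channel gene, differed by 0.34 in pair 1 and -0.28 in pair 2 (Wt1_CKO minus Wt1_flfl, log2 CPM). Cacna2d1, the gene of an α2δ subunit, differed by 0.26 in pair 1 and -0.21 in pair 2. Kcnip1, a calcium-binding partner of Kcnd channels, differed by 0.24 in pair 1 and -0.47 in pair 2. Scn8a, a sodium channel of the axon initial segment, differed by 0.14 in pair 1 and -0.15 in pair 2.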

How the results depend on the processing

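By genotype, 0 channel genes were called under each of the 12 alternatives. At an unadjusted p under 0.05 the number was 11 of 101 with the replicate block, 9 of 101 with GC correction and replicate block, 1 without a filter and 1 with at least 10 counts in every library. The share of all genes at this unadjusted threshold is not given for these alternatives. The counts over all genes that follow are at the adjusted threshold. The count over all genes was 5 with DESeq2, against 1 with edgeR, 42 with the replicate block, 8 with GC correction and replicate block, and 3 to 73 without 1 library (73 without Wt1_flfl replicate 1). The median channel fold change was -0.16 without Wt1_CKO replicate 1 and ranged from -0.16 to 0 without 1 library. Kcnt2 by genotype ranged from -0.39 without Wt1_CKO replicate 1 to 1.65, and the cause was not tested. By replicate number, the count over all genes was 197 without a filter, 585 with DESeq2, 1138 with genotype as a second term (the replicate block fit), 663 with GC correction and replicate block, and 71 to 940 without 1 library. Channel genes called by replicate number were 2 of 105 without a filter, beside 197 of all 19500 genes. With at least 10 counts in every library they were 7 of 92, beside 402 of 14716. They were 8 of 101 with DESeq2 (beside 585 of 15933), 2 with limma-voom (beside 274) and 2 with GC correction (beside 213 of 15911). With the replicate block they were 13 of 101 (beside 1138 of 15933), and with GC correction and replicate block 10 of 101 (beside 663 of 15911). Kcnq3 and Kcnj11 were called in 10 of the 12 alternatives, with adjusted p from 0.00149 to 0.139 and from 0.00225 to 0.153. All 4 were called with GC correction and replicate block. Kcnt2 and Kcnv1 were called in 7 of 12, with adjusted p from 0.000179 to 0.275 and from 0.00188 to 0.245. The libraries share only a number. The number 2 minus number 1 differences of the genotypes had a Pearson correlation of 0.28 over all genes and 0.5 over the 101 channel genes, from 2 pairs.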
